A study of Mus musculus with 6 samples.

Results

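The Ras-ERK cascade, its feedback inhibitors and its transcriptional targets were examined in femur RNA of mice that express mutant Ifitm5 in chondrocytes. The 33 genes were listed by name, a list drawn up with earlier results of these data known, and all 33 were found among the 23733 genes of the table. They comprise 9 adaptors, Ras proteins and Ras GTPase-activating proteins, 6 kinases and scaffold genes, 10 negative feedback genes of the Dusp, Spry and Spred families, 3 Etv transcription factors and 5 other targets. All 33 passed the filter on low counts, so none was selected through a group in which it was high.

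Femurs were taken at 5 weeks of age from 3 mutant mice and 3 control mice, with 1 library of whole bone per mouse. Mutant mice carried 1 Rosa26 mIfitm5 allele, a Flag-tagged cDNA with the 5′ mutation of osteogenesis imperfecta type V, together with Acan-Cre ERT2, on a C57BL/6 background. Acan-Cre ERT2 is a recombinase made from the aggrecan promoter, active in chondrocytes, that needs tamoxifen to reach the nucleus. Doses were 10 mg/kg, at P10 according to the RNA-Seq methods and from P10 to P15 according to the description of the line and the series. For this line in general the controls are littermates with Cre alone, the knocked-in allele alone or neither, and for the individual control mice neither genotype nor treatment is stated. The libraries hold RNA of whole bone, in which chondrocytes are mixed with bone, marrow, vessel and other cells.

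Growth factor receptors recruit the adaptors Grb2 and Shc1, which bring the exchange factors Sos1 and Sos2 to Ras at the membrane. Ras bound to GTP activates Raf kinases, Raf phosphorylates the MEK kinases (Map2k1 and Map2k2), and MEK phosphorylates ERK (Mapk3 encodes ERK1). Active ERK raises transcription of Dusp phosphatases, Spry and Spred inhibitors and Etv factors, and the Dusp, Spry and Spred proteins in turn restrain the cascade. In the growth plate ERK acts downstream of FGF receptors, and in osteoblasts it acts on Runx2. Messenger RNA levels do not measure the phosphorylation of ERK, and transcripts of the feedback genes and targets are the part of the cascade on which its activity is usually read in RNA.

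Totals per library were 11473467 to 17058572 counts. Levels are given as CPM (counts scaled to a total of 1000000 per library, with edgeR's TMM factors, which align most genes between libraries), with the 3 mice of a group in the order of their numbers, and log2 fold changes are mutant over control with their standard error (SE). By edgeR's quasi-likelihood test, 0 of 18126 genes passed an adjusted p of 0.05 (1551 at an unadjusted p under 0.05, limma-voom 0, DESeq2 120). With the replicate number as a block, a pairing chosen from these same counts, edgeR called 602. Ifitm5 itself, on which transcripts of both the endogenous gene and the knocked-in cDNA can be counted, was at 31.8, 31.3 and 47.6 CPM in the controls and at 23.4, 36.7 and 36.0 CPM in the mutants. It therefore did not separate the groups. Gt(ROSA)26Sor, the non-coding gene at the locus that holds the knocked-in allele, was at 11.3, 13.4 and 15.7 CPM in the controls and at 5.54, 11.3 and 7.46 CPM in the mutants (log2 fold change -0.73, SE 0.28, adjusted p = 0.563 from edgeR). The groups did not overlap, but control mouse 1 and mutant mouse 2 were both at 11.3 CPM after rounding. Over all genes tested 6.67% lay below without overlap. With library size alone in place of TMM the groups overlapped for this gene. Markers of the labelled tissue were detected, with none of the 10 osteoblast and 10 cartilage markers at 0.

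In the mutant femurs the log2 fold changes of the cascade genes lay close to 0 and those of the feedback genes were mostly negative, and no gene passed the test. Of the 33 genes, 23 had a negative log2 fold change and 10 a positive one, with a median of -0.11 beside 0.00 over all genes tested, of which 49.7% were negative. The 10 negative feedback genes had a median of -0.30, and 9 of them were negative. Without control mouse 3 this median was -0.19. The 9 adaptors, Ras proteins and GTPase-activating proteins had a median of -0.08 (6 negative), and the 6 kinases and scaffold genes a median of 0.07 (2 negative). The 3 Etv factors had a median of -0.03 and the 5 other targets one of -0.10. With library size alone in place of TMM, a scaling that moved the median of all genes tested to 0.16, the median of the 33 genes was 0.05 and that of the feedback genes was -0.14 (7 of 10 negative). None of the 33 passed an adjusted p of 0.05 by edgeR, DESeq2, limma-voom or edgeR with the replicate block, against a background of 0.0% of all genes by edgeR, 0.627% by DESeq2 and 3.32% with the block. At an unadjusted p under 0.05 edgeR had 2 of the 33 genes, both lower, where 3.49% of all genes were lower in this way. With the block 6 were lower in this way, where 6.76% of all genes were.

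**Figure D1:**
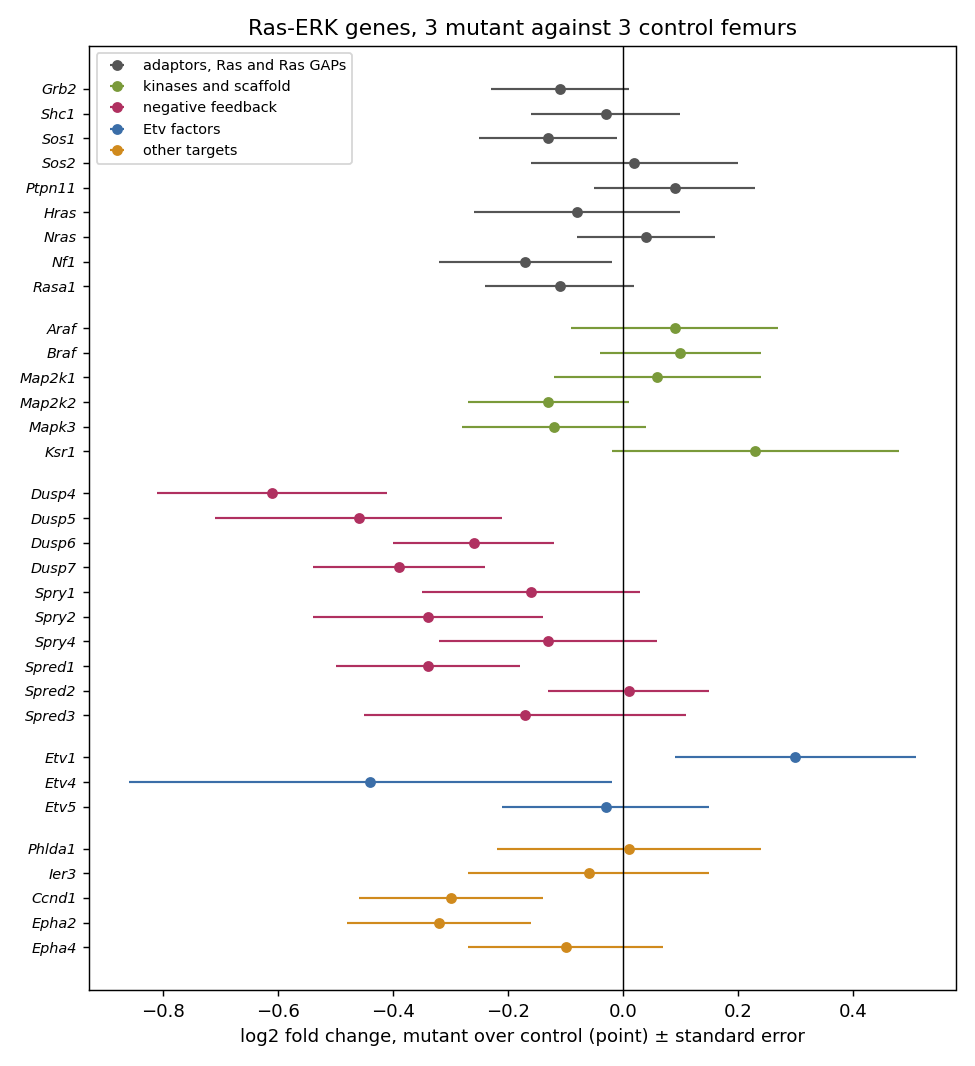
Log2 fold change of mutant over control (x axis; bars, standard error) for the 33 genes, coloured by class. The 4 Dusp genes lie between -0.61 and -0.26, whereas the kinases and adaptors lie between -0.17 and 0.23.

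The groups did not overlap for 6 of the 33 genes, all with the 3 mutant mice below the 3 control mice, and 5 of these 6 are feedback genes. Over all genes tested 6.67% lay below in this way. In the opposite direction, which 6.54% of all genes took, there were 0 of the 33. The 6 genes were Dusp4, Dusp5, Dusp6, Dusp7, Spry2 and Grb2. With library size alone Dusp4 and Spry2 remained without overlap (2.05% of all genes lay below in this way) and the other 4 overlapped. The count rose to 14 of 33 without mutant mouse 3, when 17.4% of all genes lay below.

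Dusp4, Dusp5, Dusp6 and Dusp7 encode dual-specificity phosphatases that remove phosphate from ERK, Dusp4 and Dusp5 in the nucleus and Dusp6 and Dusp7 in the cytoplasm. Dusp4 lies on chromosome 8 of GRCm39 from 35274442 to 35287048. Its level was 14.6, 14.5 and 19.7 CPM in the controls and 9.89, 10.4 and 11.8 CPM in the mutants. The 3 mutant values were close together, and control mouse 3 stood above the other control mice. Group means were 16.3 ± 2.95 and 10.7 ± 0.999 CPM (SD, n = 3), and the log2 fold change was -0.61 (SE 0.20, adjusted p = 0.545 from edgeR). Without control mouse 3 it was -0.44. With the replicate block Dusp4 had the smallest adjusted p of the 33 genes (adjusted p = 0.0966, edgeR).

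The Dusp7 gene (chromosome 9, 106245143 to 106252923) was at 49.9, 49.9 and 60.9 CPM in the controls and at 36.3, 40.7 and 45.9 CPM in the mutants. As for Dusp4, control mouse 3 was the highest and mutant mouse 1 the lowest of the 6. The log2 fold change was -0.39 (SE 0.15, adjusted p = 0.563 from edgeR). Dusp4 and Dusp7 were the 2 genes at an unadjusted p under 0.05.

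Dusp6 is widely used as a readout of ERK activity and of FGF signaling. The gene (chromosome 10, 99086564 to 99103361) was at 54.1, 57.5 and 64.7 CPM in the controls and at 43.2, 51.1 and 53.0 CPM in the mutants. The groups were separated by little, with mutant mouse 3 just under control mouse 1. This gave a log2 fold change of -0.26 (SE 0.14, adjusted p = 0.631 from edgeR). Dusp5, on chromosome 19 from 53517532 to 53530862, was at 9.23, 7.16 and 6.78 CPM in the controls and at 4.59, 5.68 and 6.49 CPM in the mutants. Its libraries held 58 to 111 counts. Here control mouse 1 was the highest, and the pair with the number 3 differed least, at a log2 ratio of -0.06 against -1.01 for the pair with the number 1. The log2 fold change of Dusp5 was -0.46 (SE 0.25, adjusted p = 0.633 from edgeR).

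**Figure D2:**
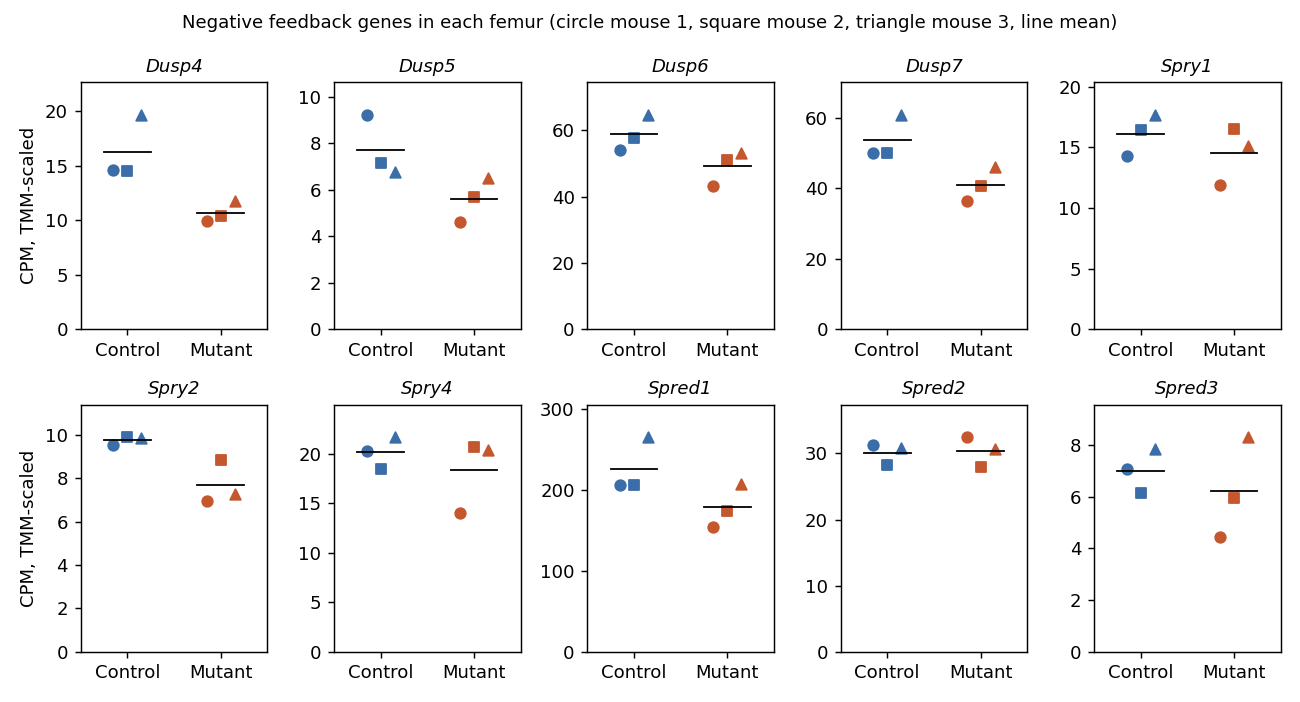
TMM-scaled CPM (y axis, from 0) of the 10 negative feedback genes in each of 3 control and 3 mutant femurs, 1 point per mouse, with the group mean as a line. For Dusp4, Dusp5, Dusp6, Dusp7 and Spry2 the 3 mutant points lie below the 3 control points, and mutant mouse 1 is the lowest of 6 in 9 of the 10 panels.

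The Spry genes encode Sprouty proteins, which act upstream of Raf. Spry2, on chromosome 14 from 106128766 to 106136446, was at 9.57, 9.92 and 9.86 CPM in the controls and at 6.97, 8.87 and 7.27 CPM in the mutants. The control mice were nearly alike and the mutant mice all lay below them. The log2 fold change was -0.34 (SE 0.20, adjusted p = 0.658 from edgeR). Spry1 and Spry4 overlapped between the groups, with log2 fold changes of -0.16 (SE 0.19) and -0.13 (SE 0.19). In mutant mouse 1 Spry4 was at 14.0 CPM, whereas mutant mice 2 and 3 were at 20.7 and 20.4 CPM, within the range of the control mice (18.5 to 21.7 CPM). Without mutant mouse 1 the log2 fold change of Spry4 was 0.02.

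The Spred proteins bind neurofibromin, the product of Nf1, and bring it to Ras. Spred1 had 206, 207 and 266 CPM in the controls and 154, 174 and 208 CPM in the mutants. Mutant mouse 3 thus lay between the control mice, while each mutant mouse was below the control mouse of the same number. This gave a log2 fold change of -0.34 (SE 0.16, adjusted p = 0.605 from edgeR). It was -0.20 without control mouse 3. Spred2 had 0.01 (SE 0.14) and Spred3 had -0.17 (SE 0.28), and both overlapped between the groups.

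Within these families the order of levels was the same in control and mutant femurs. Per length of annotated exon, Dusp6 was the highest of the 4 Dusp genes at 12.7 to 19.1 CPM per kb over the 6 mice. Dusp7 followed at 8.85 to 14.9 CPM per kb and overlapped with Dusp6 in range. Dusp4 was at 3.44 to 6.84 CPM per kb, and Dusp5, at 1.85 to 3.72 CPM per kb, overlapped slightly with it. Dusp4 made up 14.4% of the summed Dusp level per kb in control and 12.2% in mutant mice, and Dusp6 44.2% and 47.5%. Spred1 was the most abundant of all 33 genes per length (19.8 to 34.3 CPM per kb) and made up 82.9% of the Spred level in control and 79.5% in mutant mice. Spred2 (4.58 to 5.34 CPM per kb) and Spred3 (0.672 to 1.26 CPM per kb) lay apart from it and from each other. Spry1 and Spry4 did not differ in level beyond the spread of the mice (2.49 to 3.71 and 2.12 to 3.29 CPM per kb), and Spry2 was lower at 1.35 to 1.93 CPM per kb.

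**Figure D3:**
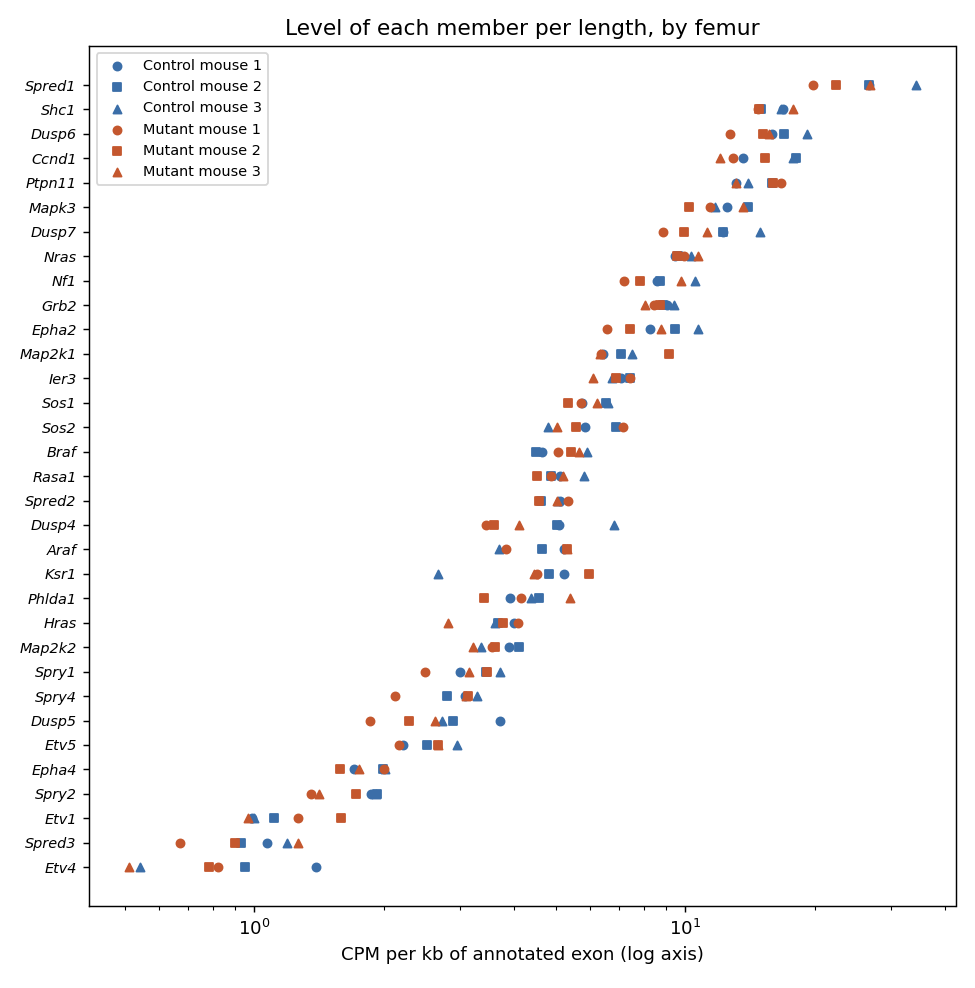
Level of each of the 33 genes in CPM per kb of annotated exon (x axis, log scale), 1 point per femur, ordered by the mean over the 6 femurs. Spred1 is at the top, at 19.8 to 34.3 CPM per kb, and Etv4 at the bottom, at 0.511 to 1.39 CPM per kb.

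Mutant mouse 1 had the lowest level of the 6 mice for 9 of the 10 feedback genes, and control mouse 3 the highest for 6 of the 10. Over all genes tested mutant mouse 1 was the lowest for 22.9% and control mouse 3 the highest for 20.7%. Summed over the 10 genes the level was 417, 415 and 506 CPM in the controls and 318, 362 and 407 CPM in the mutants. The groups did not overlap in this sum, in which Spred1 has the largest part, but mutant mouse 3 (407 CPM) lay just under control mouse 2 (415 CPM). With library size alone in place of TMM, the groups overlapped in the sum through mutant mouse 3.

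The summed markers of osteoblasts and of macrophages and osteoclasts had the same highest and the same lowest mouse as the feedback sum. The summed level of 10 osteoblast markers, among them Col1a1, ranged from 86677 to 125306 CPM in control and from 43326 to 78072 CPM in mutant mice, with control mouse 3 the highest and mutant mouse 1 the lowest, and 10 of the 10 had a negative log2 fold change. For 8 macrophage and osteoclast markers the sum ranged from 3442 to 6841 CPM in control and from 2691 to 4616 CPM in mutant mice, again with control mouse 3 the highest and mutant mouse 1 the lowest, and 8 of 8 were negative. In this sum mutant mouse 3 (4616 CPM) lay above control mice 1 and 2 (3442 and 3914 CPM). The median over the osteoblast markers of the log2 level minus the control mean was 0.00 in mutant mouse 3. It was -0.13 and -0.16 in control mice 1 and 2. For 6 endothelial markers the sum ranged from 427 to 461 CPM in control and from 363 to 413 CPM in mutant mice, and 6 of 6 were negative. In this list the order differed, with control mouse 2 the highest and mutant mouse 2 above mutant mouse 3. The 10 cartilage markers ran the opposite way in 9 genes, from 2832 to 3070 CPM in control and from 2806 to 7284 CPM in mutant mice. No gene of these lists was at 0 in all libraries. Their part in the levels of the feedback genes was not tested, and in whole bone fewer cells of a type cannot be told apart from less RNA per cell.

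**Figure D4:**
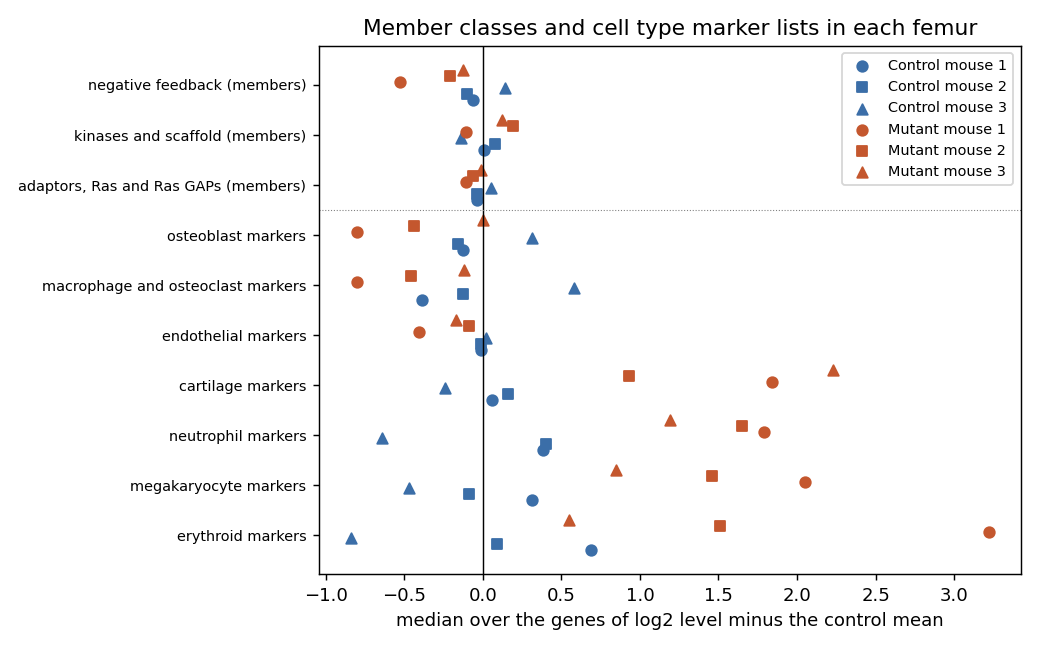
For each femur, the median over the genes of a list of the log2 level minus the control mean (x axis), for 3 classes of the Ras-ERK genes (above the dotted line) and 7 lists of cell type markers (below it). Negative feedback genes are at -0.53 in mutant mouse 1 and 0.14 in control mouse 3, the mice at the 2 ends of the osteoblast list (-0.80 and 0.31).

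The promoters of Dusp5 and Dusp6 are shown because these genes lie at the lowest and the highest level of the 4 Dusp genes among the 33 and both separated the groups. Of the 33 genes, 27 matched a promoter in the RefSeq table (GRCm38.p6), with 32 start sites between them. The 200 bases from 250 to 51 before each start were searched on both strands for the ETS site CCGGAA, the AP-1 site TGANTCA, the cyclic AMP response element TGACGTCA and the CArG box, the binding sequence of serum response factor. Ternary complex factors, which ERK phosphorylates, act with serum response factor at such boxes. Capitals mark CArG boxes, and the windows are chr19:53528895-53529094 for Dusp5 and chr10:99262981-99263180 for Dusp6, both on the plus strand.
Dusp5: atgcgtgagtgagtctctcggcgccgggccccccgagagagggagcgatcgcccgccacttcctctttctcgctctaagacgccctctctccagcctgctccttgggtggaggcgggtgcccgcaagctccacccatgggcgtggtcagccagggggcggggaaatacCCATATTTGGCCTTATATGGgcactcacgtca
Dusp6: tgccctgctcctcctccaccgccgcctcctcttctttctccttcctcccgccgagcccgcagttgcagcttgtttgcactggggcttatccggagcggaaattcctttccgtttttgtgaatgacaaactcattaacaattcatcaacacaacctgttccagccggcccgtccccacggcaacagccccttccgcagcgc
Dusp5 held 2 adjoining CArG boxes and was the only 1 of the 27 genes with this match, which 1.16% of all 32851 promoter windows had. Among the 8 feedback genes in the table the ETS site, the AP-1 site and the cyclic AMP response element were in 0 windows, against 8.03%, 5.57% and 0.828% of all windows. The ETS site was in the windows of 6 of the 27 genes, namely Araf, Hras, Map2k1, Nf1, Ptpn11 and Sos1. These are matches of letters, not measured binding.

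Among the targets, the Etv genes differed from each other. Etv1, Etv4 and Etv5 encode the ETS factors of the PEA3 group, which ERK induces downstream of FGF receptors. Etv1 was at 13.8, 15.5 and 14.1 CPM in the controls and at 17.6, 22.2 and 13.5 CPM in the mutants. Mutant mice 1 and 2 lay above the control mice and mutant mouse 3 just below them. Its log2 fold change, the most positive of the 33 genes, was 0.30 (SE 0.21, adjusted p = 0.697 from edgeR). Without mutant mouse 2 it was 0.10, and without mutant mouse 3 it was 0.46. Etv4 was scarce, with 25 to 53 counts per library. Its level was 4.41, 3.02 and 1.73 CPM in the controls and 2.61, 2.48 and 1.62 CPM in the mutants, and the groups overlapped (log2 fold change -0.44, SE 0.42). It was -0.09 without control mouse 1. Etv5, the most abundant of the 3 per length (2.16 to 2.95 CPM per kb), had -0.03 (SE 0.18).

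Epha2, an ephrin receptor whose transcription rises with ERK activity in cultured cells, was at 38.8, 44.3 and 50.2 CPM in the controls and at 30.9, 34.8 and 41.2 CPM in the mutants. Only mutant mouse 3 reached the range of the control mice. The log2 fold change was -0.32 (SE 0.16, adjusted p = 0.619 from edgeR). Ccnd1, which encodes cyclin D1 of the G1 phase, was at 65.2, 86.4 and 85.1 CPM in the controls and at 61.7, 73.1 and 57.6 CPM in the mutants. Mutant mouse 2 lay above control mouse 1, and the log2 fold change was -0.30 (SE 0.16, adjusted p = 0.622 from edgeR). All 8 cell division markers had positive log2 fold changes, and their sum was 474 to 885 CPM in control and 755 to 1761 CPM in mutant mice. Phlda1, Ier3 and Epha4 had log2 fold changes of 0.01 (SE 0.23), -0.06 (SE 0.21) and -0.10 (SE 0.17).

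Spry2, Spry4, Etv4, Etv5, Dusp4, Dusp6, Ccnd1, Epha2, Epha4 and Phlda1 form a list of 10 genes by which MAPK pathway activity is read in human tumors. All 10 are among the 33 genes, so the list reads the values above again and is not a separate result. In these femurs 9 of the 10 had a negative log2 fold change and the median was -0.28. With library size alone 6 of the 10 were negative and the median was -0.12, beside 0.16 over all genes tested. The groups did not overlap for 3 of the 10 (Dusp4, Dusp6 and Spry2), all with mutant below control, where 6.67% of all genes were. With library size alone Dusp6 overlapped.

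The adaptors and Ras genes varied little. Grb2, which links receptors to Sos, was at 48.9, 47.9 and 50.8 CPM in the controls and at 45.7, 47.3 and 43.7 CPM in the mutants. The groups did not overlap, but the difference was small (log2 fold change -0.11, SE 0.12, adjusted p = 0.810 from edgeR). Shc1, Sos1 and Sos2 had log2 fold changes of -0.03, -0.13 and 0.02 (SE 0.12 to 0.18). Sos1 and Sos2 were at like levels per length (5.34 to 6.60 and 4.79 to 7.18 CPM per kb). Ptpn11, which encodes the phosphatase SHP2 that promotes Ras activation, had 0.09 (SE 0.14). Hras and Nras had -0.08 (SE 0.18) and 0.04 (SE 0.12), and Nras was the higher per length at 9.44 to 10.7 against 2.81 to 4.08 CPM per kb.

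Nf1 and Rasa1 encode GTPase-activating proteins that switch Ras off. Nf1 was at 162, 164 and 197 CPM in the controls and at 135, 147 and 183 CPM in the mutants. The order of the mice was that of Spred1, with control mouse 3 the highest and mutant mouse 1 the lowest, and the groups overlapped through mutant mouse 3. Its log2 fold change was -0.17 (SE 0.15), and that of Rasa1 -0.11 (SE 0.13).

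The kinases showed no common direction. Ksr1, a scaffold that holds Raf, MEK and ERK together, was at 37.6, 34.7 and 19.1 CPM in the controls and at 32.5, 42.9 and 32.0 CPM in the mutants. Control mouse 3 was far below the other 5, and the log2 fold change of 0.23 (SE 0.25, adjusted p = 0.811 from edgeR) became -0.01 without it. Map2k2, which encodes MEK2, was at 34.6, 36.5 and 29.9 CPM in the controls and at 31.7, 32.2 and 28.6 CPM in the mutants, with overlap (log2 fold change -0.13, SE 0.14). Mapk3 was at 33.4, 37.4 and 31.3 CPM in the controls and at 30.6, 27.2 and 36.3 CPM in the mutants. Mutant mice 1 and 2 lay below the control range and mutant mouse 3 inside it, and the log2 fold change was -0.12 (SE 0.16, adjusted p = 0.855 from edgeR). Araf, Braf and Map2k1 had 0.09 (SE 0.18), 0.10 (SE 0.14) and 0.06 (SE 0.18). Per length Map2k1 (6.35 to 9.17 CPM per kb) was above Map2k2 (3.21 to 4.10 CPM per kb), while Araf and Braf overlapped (3.70 to 5.32 and 4.50 to 5.90 CPM per kb).

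Exons on the opposite strand overlap 20.2% to 48.4% of the exon length of 6 of the 33 genes, and whether strand was used in counting was not given. Ccnd1 shares 48.4% with LTO1 (879.5 counts in all libraries together), Map2k1 31.4% with Snapc5 (381 counts) and Dusp6 20.2% with Gm56965 (194 counts). Ier3, Phlda1 and Dusp5 share 22.4% to 34.8% with non-coding genes that are not among the counted genes. Further genes of the 33 share 0.2% to 19.0%, and some of their partners had more counts. Among them, Spry1 shares 19.0% with Gm42922, Rasa1 14.4% with Ccnh (1617 counts) and Braf 4.6% with Ndufb2 (1134 counts). Reads from these partners cannot be told apart from those of the named genes without strand.

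A further 72 genes of the pathway in the table were listed by role, with earlier results of these data known. Of these 70 were tested, with 42 positive and 28 negative log2 fold changes and a median of 0.03. The groups did not overlap for 9 of the 70 with mutant below control and for 3 with mutant above. Over all genes tested 6.67% and 6.54% lay below and above in this way. None passed by edgeR, DESeq2 or limma-voom (edgeR: 4 higher and 5 lower at an unadjusted p under 0.05, where 5.06% and 3.49% of all genes were). With the replicate block edgeR called 2 higher and 2 lower, where 2.7% and 0.623% of all genes were called. The further adaptors and exchange factors had a median of 0.03, the Ras proteins and GTPase-activating proteins -0.06, the kinases and scaffolds 0.02, the kinases and substrates that ERK activates 0.04 and the other inhibitors 0.10.

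The 4 genes called with the block point in both directions. Dusp1, a nuclear phosphatase that acts on p38 and JNK as well as ERK, was at 16.3, 21.7 and 16.3 CPM in the controls and at 23.9, 41.8 and 24.3 CPM in the mutants, the reverse of the 4 Dusp genes above. This gave a log2 fold change of 0.73 (SE 0.25, adjusted p = 0.550 from edgeR), and with the replicate block 0.70 (adjusted p = 0.0315). Without mutant mouse 2, in the fit without the block, it was 0.41. Rps6ka1, which encodes the ERK-activated kinase RSK1, was at 18.6, 16.6 and 12.8 CPM in the controls and at 35.3, 30.2 and 18.0 CPM in the mutants (with the block 0.77, adjusted p = 0.0245, edgeR). Its order of mice within each group was that of the erythroid, megakaryocyte and cell division markers, among 12 marker lists. The neutrophil markers had another order, with control mouse 2 above control mouse 1. The sum of 10 neutrophil markers ranged from 279 to 570 CPM in control and from 1008 to 1759 CPM in mutant mice, with 10 of 10 positive, and that of 10 erythroid markers from 631 to 1825 and from 1652 to 10670 CPM, with 10 of 10 positive. The sum of 8 skeletal muscle markers was 4568, 9051 and 1092 CPM in the controls and 6790, 12556 and 1946 CPM in the mutants, with 8 of 8 positive. This sum was highest in the mouse numbered 2 of each group, as Dusp1 was. In mutant mouse 3 the muscle sum lay below control mice 1 and 2, whereas Dusp1 lay above all 3 control mice. The part of these cells in the levels of Dusp1 and Rps6ka1 was not tested.

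Shc2, an adaptor related to Shc1, was at 52.7, 49.4 and 66.4 CPM in the controls and at 23.6, 37.6 and 44.3 CPM in the mutants (with the block -0.71, adjusted p = 0.0315, edgeR). Rasal2, a Ras GTPase-activating protein, was at 75.9, 89.5 and 98.3 CPM in the controls and at 56.8, 70.3 and 62.2 CPM in the mutants (with the block -0.48, adjusted p = 0.0434, edgeR). Neither gene overlapped between the groups. Both were highest in control mouse 3 and lowest in mutant mouse 1, as the osteoblast markers were. Of the 4 calls, 1 remained without the pair of mice numbered 1 (Dusp1), 1 without the pair numbered 2 (Shc2) and 0 without the pair numbered 3.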

How the data were processed

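Total RNA of pulverized whole femurs was sequenced in 3 mutant and 3 control mice. The authors aligned the reads with STAR to mm39 and quantified genes in Partek, and deposited estimated counts (70.7% of the values are whole numbers) for 23733 genes with at least 10 counts over the 6 libraries; the sources used here give no versions, annotation or strand setting. Gene IDs were matched to GENCODE vM39 (23572 matched and 161 did not), which also gave coordinates (GRCm39) and the exon length behind CPM per kb.

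Counts were rounded to whole numbers and tested in R 4.3.3 with edgeR 4.0.16 (quasi-likelihood test with robust estimation, TMM scaling, default filter on low counts with a minimum of 10 counts, Benjamini-Hochberg adjustment over the 18126 genes that passed). TMM factors were 0.931 to 0.952 for the controls and 1.01 to 1.10 for the mutants. Standard errors were derived from the F statistic. The fits were tested on simulated data. DESeq2 1.42.0 and limma 3.58.1 (voom, with and without quality weights), other scalings and filters, a replicate block and fits without each mouse were run as alternatives. Summaries used pandas 2.3.3 under Python 3.11.15, and plots used matplotlib 3.10.9. No pair of libraries agreed within sampling noise.

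Deviations from the group means correlated at 0.218, 0.273 and 0.552 for mice numbered 1, 2 and 3. All 3 exceed the limit of 0.1, so the numbers were taken as pairing the mice, a pairing that comes from the data, since the labels do not explain the numbers. Mutant mouse 1 correlated slightly more with control mouse 2 (0.234). The same counts gave the pairing and the tests with the block, so p-values with the block can be too small. By how much was not tested. An exact permutation test over 3 against 3 mice cannot go below 0.1, so none is given.

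The genes and marker lists were chosen with earlier results of these data known. Values in every mouse are given for members whose groups did not overlap, members at an unadjusted p under 0.05, the 2 members with the smallest p in each class without such a member, and other pathway genes called with the block. Spred1, Spry4, Nf1 and Mapk3 were added after their values were seen.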

Additional observations from a re-analysis of the deposited data

How the results depend on the processing

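No alternative called any of the 33 genes, and 0 to 7 of them had an unadjusted p under 0.05. Over all genes DESeq2 called 120 (111 higher, 9 lower) and edgeR with the replicate block 602 (489 higher, 113 lower). The block called 297, 700 and 157 genes without replicate 1, 2 and 3, and leaving out 1 mouse without the block gave 0 to 8 calls, the 8 without mutant mouse 2. Of the other pathway genes the block called 4, and 2, 1 and 0 without replicate 1, 2 and 3. The 2 without replicate 1 were Dusp1 and Rasgrp2, and Rasgrp2 was not among the 4. The median log2 fold change over the 33 genes was -0.11, moved to 0.05 with library size alone (all genes tested 0.16) and ranged from -0.17 to -0.08 without 1 mouse. The count of genes with all mutant mice below all control mice was 6, was 2 with library size alone and ranged from 6 to 14 without 1 mouse, 14 without mutant mouse 3 (both chosen after seeing the data). The share of all genes tested that lay below in this way was 6.67%, and 2.05% with library size alone. It ranged from 9.26% to 17.4% without 1 mouse, 17.4% without mutant mouse 3.

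Some log2 fold changes changed sign, and the cause was not tested. Library size alone moved the median of all genes tested from 0.00 to 0.16. With this scaling the log2 fold changes were 0.05 for Grb2, 0.13 for Shc1, 0.04 for Sos1, 0.08 for Hras, 0.05 for Rasa1, 0.04 for Map2k2, 0.05 for Mapk3, 0.0 for Spry1, 0.02 for Spry4, 0.13 for Etv5, 0.11 for Ier3 and 0.07 for Epha4. Phlda1 was at -0.01 with limma-voom, -0.14 with quality weights and -0.01 with the block, and with quality weights Sos2 was at -0.05 and Spred2 at -0.01. In the block without replicate 1, Shc1 was at 0.04, Sos2 at -0.12, Ptpn11 at -0.05, Spry4 at 0.03, Spred2 at -0.02, Spred3 at 0.02 and Phlda1 at -0.06. In the block without replicate 2, Map2k1 was at -0.13, Mapk3 at 0.05 and Epha4 at 0.01. In the block without replicate 3, Sos2 was at -0.01, Hras at 0.03, Araf at -0.13, Etv5 at 0.03 and Phlda1 at -0.17. Without 1 mouse the log2 fold changes ranged from -0.13 to 0.02 for Shc1, -0.14 to 0.16 for Sos2, -0.20 to 0.06 for Hras, -0.01 to 0.08 for Nras, -0.03 to 0.23 for Araf, -0.15 to 0.15 for Map2k1, -0.01 to 0.40 for Ksr1, -0.23 to 0.02 for Spry4, -0.04 to 0.07 for Spred2, -0.43 to 0.02 for Spred3, -0.14 to 0.09 for Etv5, -0.18 to 0.15 for Phlda1 and -0.13 to 0.02 for Ier3.

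Depth limits the scarce genes, among them Etv4, Spred3 and Dusp5, with 25 to 53, 56 to 128 and 58 to 111 counts per library.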
